A study of Mus musculus with 12 samples.

Results

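The enzymes of amino acid breakdown, the urea cycle and one-carbon metabolism were followed in whole mouse embryos on day E12.5 of development. A list of 38 genes was looked up by symbol in the deposited count tables, and each of the 38 was among the 23420 genes listed there for both mouse lines. They were kept in 2 classes, 21 enzymes that are restricted mainly to liver in the adult animal and 17 classed as broadly expressed. Of the 17, *Ass1* had at most 1 count in any library. How reads with several alignments were treated is not given in the sources used here. Whether the count of *Ass1* reflects its expression was not tested. The study asked how loss of *Carm1* changes gene expression in the embryo and whether loss of *Pax3* gives a like picture. In the *Carm1* line (strain C57BL/6), embryos homozygous for the null allele Carm1tm1Mtb, called *Carm1* KO/KO, were compared with wild-type embryos. In the *Pax3* line (a closed colony on a mixed background), embryos homozygous for the Splotch allele Pax3Sp2h, called *Pax3* Sp2H/Sp2H, were compared with wild-type embryos. Each of these 4 groups had 3 embryos from intercrosses of heterozygous mice, and each homogenized embryo gave 1 library of polyadenylated RNA. No other agent or allele is named in the labels, and the lines differed in strain and in the laboratory that kept the mice. *Carm1* encodes an arginine methyltransferase and transcriptional coactivator, and *Pax3* a transcription factor of neural tube, muscle and neural crest.

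The liver disposes of nitrogen from amino acids by the urea cycle, and it breaks down histidine, tyrosine, tryptophan and proline by chains of enzymes that hepatocytes switch on as they mature. One-carbon metabolism moves single carbon units on folate, from serine and glycine, to nucleotide synthesis and to homocysteine, which becomes methionine and then S-adenosylmethionine, the donor used by methyltransferases. Folate-dependent steps run in all dividing cells, whereas the betaine-dependent route back to methionine belongs mainly to liver and kidney. At E12.5 the fetal liver holds immature hepatoblasts among many blood precursors.

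Promoter sequences were read for members that passed a test in the comparisons that follow and held a searched motif, and for the paralogs *Bhmt* and *Bhmt2*, because a set of these genes moved together in *Carm1* KO/KO embryos. They come from RefSeq on GRCm38.p6, which had an entry for 31 of the 38 members (16 liver-restricted, 15 broadly expressed), and are written 5′ to 3′ on the strand of the gene. For *Bhmt* (chr13:93637790-93637819, minus strand) and *Asns* (chr6:7693214-7693243, minus strand) a stretch of 30 bases around the match is shown, and for *Bhmt2* (chr13:93674303-93674432, minus strand) and *Prodh2* (chr7:30493408-30493621, plus strand) the bases before the first exon. Capitals mark the matches.
Bhmt: ctgctattggaCAAAGGTCAgtgtgcagac
Bhmt2: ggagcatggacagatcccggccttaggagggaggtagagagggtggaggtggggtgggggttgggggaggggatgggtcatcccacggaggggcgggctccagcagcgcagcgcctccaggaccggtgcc
Prodh2: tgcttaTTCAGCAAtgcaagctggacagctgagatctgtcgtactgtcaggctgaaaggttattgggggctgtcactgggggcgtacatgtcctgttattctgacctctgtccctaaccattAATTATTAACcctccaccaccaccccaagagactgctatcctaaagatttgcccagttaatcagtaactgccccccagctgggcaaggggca
Asns: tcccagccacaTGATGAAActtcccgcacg

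The motifs were searched on both strands of the 250 bases before each RefSeq start. In GENCODE, 203 of these bases in *Bhmt* and 45 in *Asns* lie in exons of the same gene, and both matches shown for them fall within the annotated gene. In *Bhmt2*, 100 of the bases lie in exons upstream of its annotated gene, and in *Prodh2* 36 lie in exons. The stretches shown for *Bhmt2* and *Prodh2* leave these out. In *Prodh2* the second run of capitals is a match on the reverse strand to the HNF1 motif (GTTAAT, any base, ATT), which 0.371% of the 32841 mouse promoters in the table hold, and the first run matches, also on the reverse strand, the CEBP motif TTGCNNAA, held by 9.57%. CEBP matches were also present in *Hal* and *Hgd*, so 3 of the 16 liver-restricted promoters held one. The *Bhmt* match is to the nuclear receptor motif CAAAGGTCA (0.426% of promoters), which was added to the search after this sequence had been read. A further liver motif, the HNF4 element CAAAGTCCA (0.384% of promoters), was in none of the 31. The capitals in *Asns* match TGATGNAA, the composite element of the stress factor ATF4, which 3.45% of promoters hold and which no other member's window held. No motif was common to the members that changed, and these matches describe letters in the windows.

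Library totals lay between 17183344 and 23518692 counts, and values are given as CPM, the count per 1000000 counts of the TMM-scaled library size. *Carm1* was lower in *Carm1* KO/KO libraries (72.3 ± 3.55 against 144 ± 6.99 CPM in wild types, SD, n = 3 each, edgeR adjusted *P* = 1.23e-15), and *Pax3* was lower in *Pax3* Sp2H/Sp2H than in wild-type libraries (20.8 ± 2.40 against 28.1 ± 2.99 CPM, edgeR adjusted *P* = 0.00142). Wild-type replicate 3 was the only library of the *Carm1* line with Y-linked counts (4804), while in the *Pax3* line mutant replicate 3 and wild-type replicates 2 and 3 had them. The precursor of ribosomal RNA, *Rn45s*, took 3.30% to 6.40% of the counts in the *Carm1* line and, in the *Pax3* line, 0.374% to 0.381% in mutants and 0.764% to 1.70% in wild types (log2 -1.66, edgeR adjusted *P* = 0.0356). Defining hepatocyte markers, among them *Alb* and *Afp* were detected in all 12 libraries, beside markers of blood, skin and neural tissue.

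The liver-restricted enzymes were lower in *Carm1* KO/KO embryos, whereas the summed level of the broadly expressed enzymes overlapped with that of wild-type embryos. The 21 liver-restricted enzymes together made 13.7, 13.6 and 16.4 CPM in *Carm1* KO/KO embryos and 30.5, 28.5 and 36.5 CPM in the wild-type libraries. The highest mutant sum was well under the lowest wild-type sum, so the groups did not overlap. For the 17 broadly expressed enzymes the sums ran from 1078 to 1094 CPM in *Carm1* KO/KO and from 1073 to 1102 CPM in wild-type libraries, so that these groups overlapped.

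Of the 38 genes, 30 had enough counts to be tested in the *Carm1* line. At an edgeR adjusted *P* below 0.05, 9 were lower and 1 was higher in *Carm1* KO/KO embryos, where over all 15811 genes tested 7.83% were called lower and 5.49% higher. Among the 14 liver-restricted enzymes tested, 8 were called lower and none higher, with a median log2 fold change of -1.43. Over all genes the median was 0.00. The 16 broadly expressed enzymes tested gave 1 lower and 1 higher, with a median of 0.03. Because the filter keeps a gene that is high enough in either group, a member kept through its wild-type level alone had to differ, and these counts describe the tested members rather than all 21. Without regard to the filter, the 3 mutant values lay below the 3 wild-type values for 13 of the 21 liver-restricted genes, 12 of the 14 tested and *Hpd*, where 15.7% of all genes tested showed such a gap downward. An exact permutation test of 3 libraries against 3 has 0.1 as its smallest *P*.

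**Figure D1:**
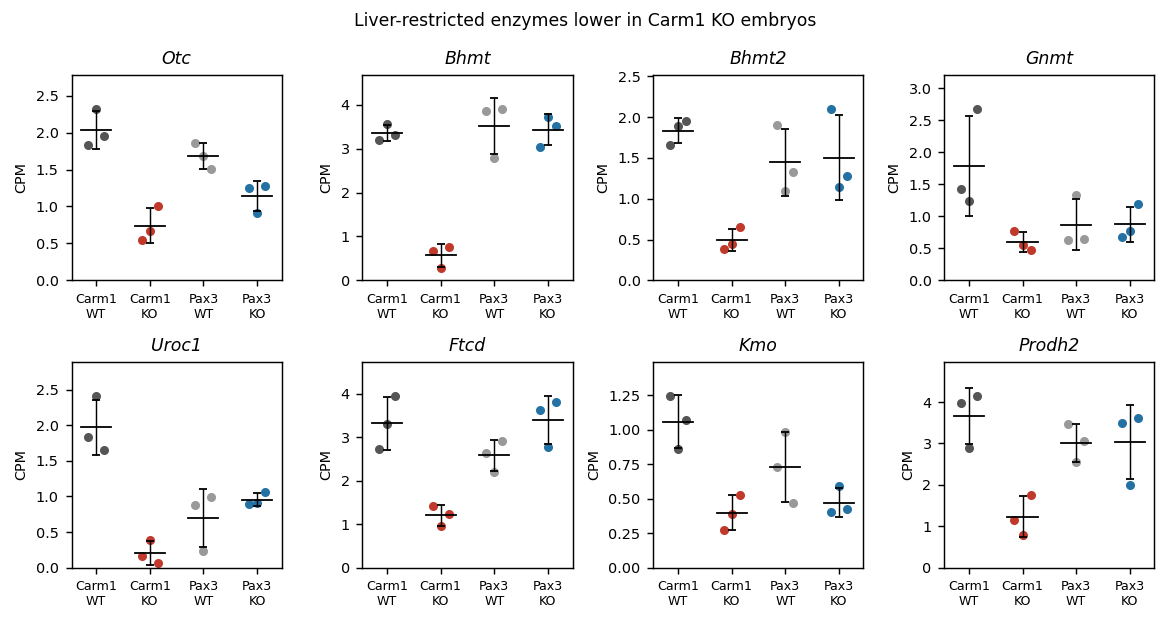
CPM (vertical axes, from 0) of the 8 liver-restricted enzymes called lower in the Carm1 line, 1 point per library, with the group mean (long bar) and SD (n = 3). In each panel the 3 *Carm1* KO/KO points lie below the 3 wild-type points of that line, whereas the *Pax3* groups overlap in all panels but that of *Otc*.

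Of the 4 betaine and methionine enzymes, the 3 that were tested were called lower in *Carm1* KO/KO embryos. These 3 passed the filter through their wild-type counts. In mutants they had 5 to 13 (*Bhmt*), 7 to 11 (*Bhmt2*) and 8 to 14 counts (*Gnmt*), so that all tested members fell is partly set by the filter. *Bhmt* encodes betaine-homocysteine methyltransferase, which remakes methionine with betaine as the methyl donor, and it lies at chr13:93616675-93637961 on the minus strand (positions from GENCODE on GRCm38, the same build as mm10). Its level was 0.658, 0.280 and 0.766 CPM in *Carm1* KO/KO libraries and 3.20, 3.57 and 3.32 CPM in wild-type libraries. All 3 mutant values were under the lowest wild-type value, a 5.90-fold difference (log2 -2.56 ± 0.31 SE, edgeR adjusted *P* = 2.71e-07). *Bhmt2*, the neighbouring paralog at chr13:93655720-93674302, which uses S-methylmethionine in place of betaine, stood at 0.384, 0.448 and 0.648 CPM against 1.66, 1.89 and 1.95 CPM. It too was separated between the groups, 3.72-fold lower in the mutants (log2 -1.89 ± 0.35, edgeR adjusted *P* = 0.000238). How reads that align to both paralogs were treated is not given in the sources used here.

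*Gnmt* encodes glycine N-methyltransferase, which uses up surplus S-adenosylmethionine, at chr17:46725664-46729168. It measured 0.768, 0.560 and 0.471 CPM in *Carm1* KO/KO and 1.42, 1.25 and 2.68 CPM in wild-type libraries. The groups did not overlap, though wild-type replicate 3 stood well above the other two (log2 -1.56 ± 0.37, edgeR adjusted *P* = 0.00362). Without that library, the 1 with Y-linked counts, the difference no longer passed, with an edgeR adjusted *P* of 0.235. *Mat1a*, the S-adenosylmethionine synthetase of adult liver, had 0 to 6 counts in mutant and 3 to 19 counts in wild-type libraries and was not tested.

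Histidine is broken down in 4 steps by *Hal*, *Uroc1*, *Amdhd1* and *Ftcd*. *Uroc1*, encoding urocanate hydratase, the second step, at chr6:90333284-90364551 on the plus strand, showed the largest fold change of the 30 members tested. Its values were 0.165, 0.392 and 0.0591 CPM in *Carm1* KO/KO libraries, which are 3, 7 and 1 counts, and 1.84, 2.41 and 1.66 CPM in wild-type libraries, which are 31, 56 and 34 counts. The mutants were thus close to 0 counts and the wild types were not, a 9.30-fold difference (log2 -3.22 ± 0.44, edgeR adjusted *P* = 3.01e-06, and -4.05 without mutant replicate 2). *Ftcd*, the last step, which hands a one-carbon unit to folate, read 1.43, 0.952 and 1.24 CPM against 2.73, 3.31 and 3.95 CPM. It was 2.77-fold lower, without overlap (log2 -1.47 ± 0.25, edgeR adjusted *P* = 0.000111). *Amdhd1* (imidazolonepropionase) also showed no overlap, with a log2 fold change of -0.91 ± 0.37, but did not pass (edgeR adjusted *P* = 0.106). *Hal* (histidine ammonia-lyase), whose gene lies beside *Amdhd1* on chromosome 10, had 0 to 4 counts in mutants and 1 to 6 in wild types and was not tested.

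For the urea cycle the members differed among themselves. *Otc*, ornithine transcarbamylase, at chrX:10252305-10321024, gave 0.549, 0.672 and 1.002 CPM in *Carm1* KO/KO libraries and 1.84, 2.32 and 1.95 CPM in wild-type libraries. These did not overlap, and *Otc* was 2.77-fold lower (log2 -1.47 ± 0.32, edgeR adjusted *P* = 0.00150). *Arg1*, the liver arginase, which releases urea, overlapped between the groups, with a log2 fold change of 0.25 ± 0.21 (edgeR adjusted *P* = 0.481). *Asl* (argininosuccinate lyase) also overlapped (0.15 ± 0.10, edgeR adjusted *P* = 0.368). *Cps1*, which makes carbamoyl phosphate for the cycle, had 7 to 11 counts in mutant and 9 to 10 in wild-type libraries, too few for the test, and *Ass1* had at most 1 count in each of the 12 libraries.

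Among the enzymes of proline, serine, glutamine and glyoxylate, *Prodh2*, a hydroxyproline dehydrogenase, at chr7:30493622-30513402, read 1.15, 0.784 and 1.77 CPM in *Carm1* KO/KO and 3.97, 2.88 and 4.14 CPM in wild-type libraries. Its highest mutant value was under its lowest wild-type value, and it was 2.96-fold lower (log2 -1.56 ± 0.26, edgeR adjusted *P* = 7.44e-05). *Sds* (serine dehydratase) and *Gls2* (liver glutaminase) were lower in each mutant library than in any wild-type library, by small gaps, and did not pass (log2 -0.51 ± 0.43 and -0.27 ± 0.26, edgeR adjusted *P* = 0.496 and 0.567). *Agxt* (the glyoxylate aminotransferase of peroxisomes) had 0 to 2 counts in mutants and 1 to 7 in wild types.

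In tryptophan breakdown, *Kmo* (kynurenine 3-monooxygenase) read 0.274, 0.392 and 0.530 CPM in *Carm1* KO/KO and 1.25, 0.860 and 1.07 CPM in wild-type libraries. The groups were apart and it was called lower (log2 -1.39 ± 0.42, edgeR adjusted *P* = 0.0243), from 5 to 9 counts in each mutant library. That call was lost when any of 4 libraries was left out (either of the mutant replicates 1 and 2 or of the wild-type replicates 1 and 3) and in DESeq2, with an adjusted *P* up to 0.135. *Haao*, the next step but one, overlapped (-0.96 ± 0.44, edgeR adjusted *P* = 0.151), and *Tdo2*, the first and rate-limiting step, had 1 to 6 counts in mutants and 2 to 8 in wild types. In tyrosine breakdown, *Hgd* (homogentisate dioxygenase) did not overlap and lay just outside the threshold (-0.83 ± 0.29, edgeR adjusted *P* = 0.0541), while *Fah*, the last step, overlapped (-0.28 ± 0.16, edgeR adjusted *P* = 0.263). *Hpd*, which makes homogentisate, had 3, 3 and 2 counts in *Carm1* KO/KO and 15, 12 and 54 in wild-type libraries and failed the filter. Fitted with no filter, its log2 fold change was -3.10 (edgeR adjusted *P* = 2.89e-07). Without wild-type replicate 3 it was -2.14 (edgeR adjusted *P* = 0.0309), a fit added after the data had been seen, and DESeq2 with all libraries gave an adjusted *P* of 0.000962. *Tat*, the first enzyme of the chain, had 0 to 2 and 0 to 6 counts.

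The liver marker genes moved with these enzymes. Of 17 hepatocyte markers, 15 were called lower in *Carm1* KO/KO embryos and none higher, with a median log2 fold change of -1.03, and their sum ran from 895 to 1047 CPM in mutants and from 1645 to 2030 CPM in wild types. *Alb* fell by 1.41 on the log2 scale (edgeR adjusted *P* = 0.00786), *Afp* by 0.66 (edgeR adjusted *P* = 2.17e-07) and *Hnf4a*, a transcription factor of hepatocytes, by 1.30 (edgeR adjusted *P* = 2.09e-06). In bulk RNA of whole embryos, fewer hepatocytes and less of these transcripts per hepatocyte cannot be told apart. Over all genes tested in the *Carm1* line, 7.83% were called lower and 5.49% higher. Of 11 erythroid markers tested, 8 were called lower and 1 higher, of 10 epidermis markers 4 were lower, and of 10 neural progenitor markers 7 were higher. The summed erythroid markers overlapped, at 7589 to 8934 CPM in mutants and 5445 to 9524 CPM in wild types. Of 9 kidney and mesonephros markers tested, 1 was higher and none lower. Of 9 macrophage markers tested, 1 was higher and 2 were lower, with a median log2 fold change of 0.13 and sums of 120 to 133 CPM in mutants and 118 to 126 CPM in wild types. Of 6 gut epithelium markers tested, 1 was higher and 1 lower, with a median of -0.05 and sums of 52.0 to 58.9 and 48.9 to 55.5 CPM, so both of these sums overlapped. The part of any of these cell types in the enzyme values was not tested.

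**Figure D2:**
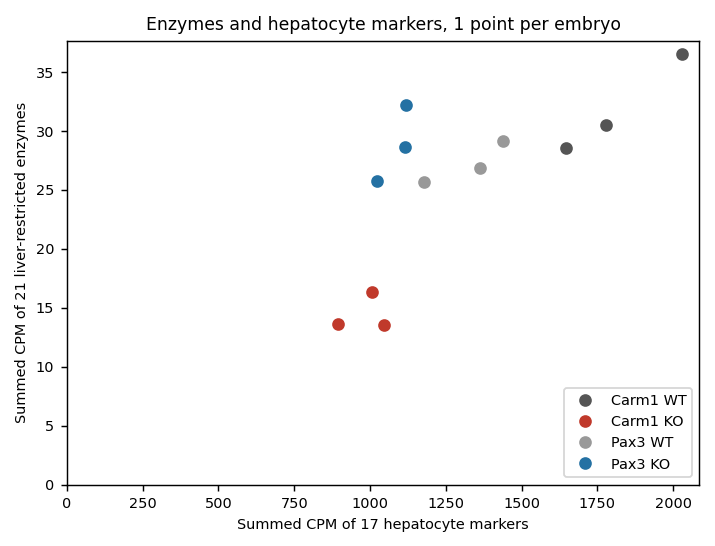
Summed CPM of the 21 liver-restricted enzymes (vertical axis) against those of 17 hepatocyte markers (horizontal axis), both from 0, 1 point per embryo. The 3 *Carm1* KO/KO embryos lie at the bottom with enzyme sums of 13.6 to 16.4 CPM, and the *Pax3* Sp2H/Sp2H embryos lie left of their wild types at enzyme sums of 25.8 to 32.2 CPM.

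Set against the summed CPM of the hepatocyte markers, the enzymes of the *Carm1* line parted into genes that were lower, like and higher. *Alb* and *Afp* made up most of that sum. In wild types they averaged 514 and 751 CPM, of a mean marker sum of 1819 CPM. The scale is thus mainly relative to *Alb* and *Afp*, which fell by 1.41 and 0.66 on the log2 scale. The enzyme sum was 15.3, 12.9 and 16.3 CPM per 1000 CPM of markers in *Carm1* KO/KO and 17.1, 17.3 and 18.0 in wild-type libraries. Each mutant ratio was below each wild-type ratio, a log2 difference of -0.24 (two-sided exact permutation *P* = 0.1, the smallest this design allows). The members and lists were chosen with earlier results of these data known. For that reason no conclusion is drawn from this *P*, nor from the one for the *Pax3* line below. The direction turned when every enzyme and marker was given the same weight by averaging log2 CPM with a pseudocount of 0.5, where the difference was 0.23. The pseudocount makes the fold changes of genes with low CPM, such as most of these enzymes, smaller. Its part in this turn was not tested. Gene by gene on this scale, the mutant values of *Uroc1*, *Bhmt*, *Bhmt2* and *Hpd* were all below the wild-type values, which was so for 0.367% of all genes tested. Those of *Arg1*, *Cps1*, *Gls2* and *Sds* were all above, which was so for 90.8% of genes, since the marker sum itself fell. Per 100000 CPM of markers, *Bhmt* measured 58.8 ± 27.8 in mutants and 187 ± 27.4 in wild types, whereas *Arg1* measured 344 ± 31.8 and 159 ± 39.0 (SD, n = 3). *Ftcd*, *Otc*, *Prodh2*, *Gnmt* and *Kmo* overlapped between the groups on this scale.

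**Figure D3:**
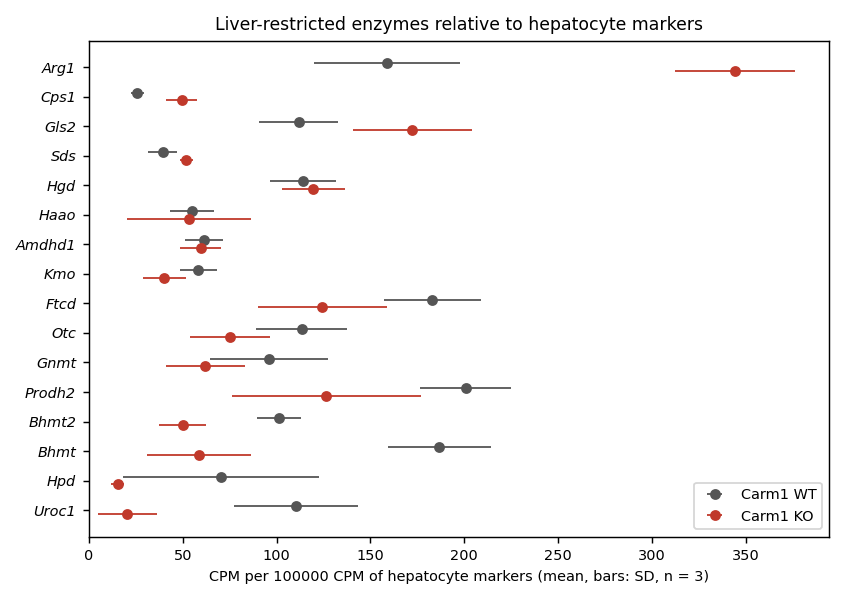
Level of liver-restricted enzymes per 100000 CPM of summed hepatocyte markers, mostly *Alb* and *Afp*, in the *Carm1* line (horizontal axis, from 0, mean and SD, n = 3), ordered by the ratio of mutant to wild type. The 16 of 21 enzymes with a wild-type level of at least 25 are drawn, from *Uroc1*, lower in mutants, at the bottom to *Arg1*, higher, at the top.

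Among the broadly expressed enzymes of the *Carm1* line, *Psat1* was the clearest. It encodes phosphoserine aminotransferase, the second step from glycolysis to serine, at chr19:15904678-15947337 on the minus strand. Its level was 96.8, 95.9 and 98.05 CPM in mutants and 116, 114 and 116 CPM in wild types. Values within a group lay close together and the groups well apart, a 1.19-fold difference (log2 -0.25 ± 0.05, edgeR adjusted *P* = 0.000174). *Gldc*, the glycine decarboxylase of the mitochondrial cleavage system, was 33.5, 33.2 and 27.5 CPM against 26.1, 26.1 and 27.3 CPM. The lowest mutant value was just above the highest wild-type value, a gap upward that 14.2% of all genes tested showed, and *Gldc* was called higher (log2 0.25 ± 0.08, edgeR adjusted *P* = 0.0262), a call lost in DESeq2 and without the mutant replicate 1 or 2 or the wild-type replicate 2, with an adjusted *P* up to 0.177. The neural progenitor markers, 7 of 10 higher, moved with it, from 969 to 1020 CPM in wild types to 1240 to 1292 CPM in mutants, and their part in the *Gldc* value was not tested.

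The remaining 14 broadly expressed enzymes tested did not pass in the *Carm1* line. *Phgdh*, the first step of serine synthesis, and the serine hydroxymethyltransferases *Shmt1* and *Shmt2* had log2 fold changes of 0.06, -0.07 and 0.03. In the methionine cycle *Mat2a*, the S-adenosylmethionine synthetase of most tissues, gave 0.03, *Ahcy*, which hydrolyzes S-adenosylhomocysteine, 0.06 and *Mtr*, the methionine synthase that uses folate, 0.09. *Mthfd2*, a mitochondrial folate enzyme, came close to the threshold without passing (log2 -0.18 ± 0.07, edgeR adjusted *P* = 0.0571). Its groups did not overlap, a gap downward that 15.7% of all genes tested showed. *Asns*, asparagine synthetase, gave -0.20 ± 0.08 (edgeR adjusted *P* = 0.109). *Cbs* and *Cth*, of transsulfuration, gave 0.02 and 0.12, and *Mthfd1* and *Amt* -0.03 and 0.06.

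**Figure D4:**
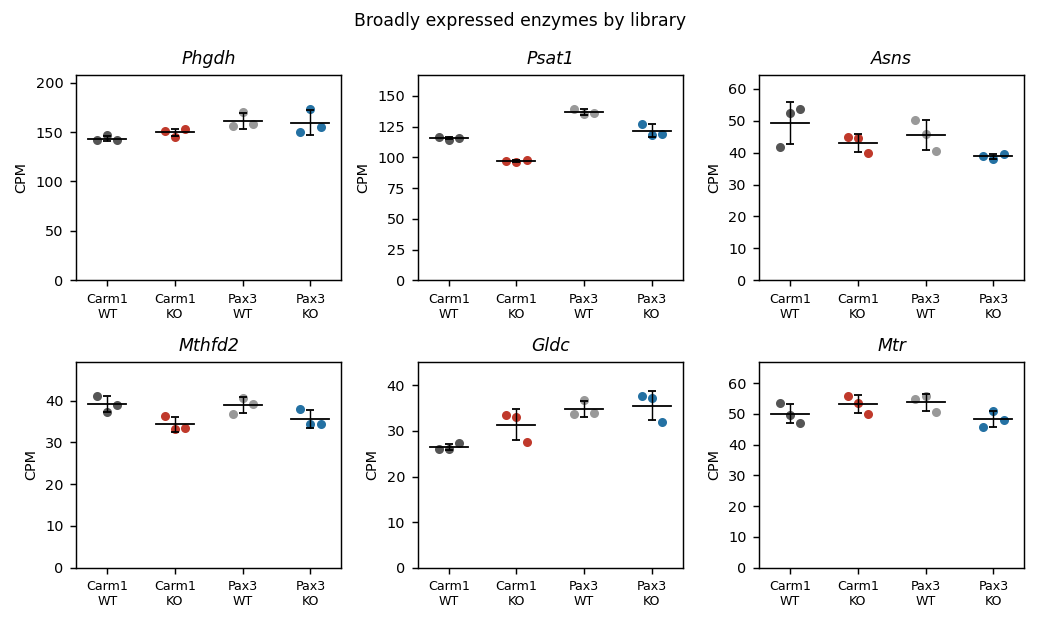
CPM (vertical axes, from 0) of 6 broadly expressed enzymes in the 4 groups, 1 point per library, with the group mean (long bar) and SD (n = 3). The *Psat1* points of both mutant groups lie below those of their wild types, and *Phgdh* shows no such gap.

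In the *Pax3* line the summed level of the liver-restricted enzymes did not separate mutants from wild types. Their sum was 28.7, 25.8 and 32.2 CPM in *Pax3* Sp2H/Sp2H and 29.1, 25.7 and 26.8 CPM in wild-type libraries, with the groups overlapping. Of 33 members tested, 1 was called higher and 2 were called lower by edgeR, against 14% of all 15724 genes called higher and 10.5% called lower. The 17 liver-restricted enzymes tested had a median log2 fold change of 0.05 and the 16 broadly expressed ones 0.01, where the median of all genes was -0.00. *Bhmt*, *Bhmt2*, *Uroc1* and *Prodh2* gave log2 fold changes of -0.05 ± 0.18, 0.05 ± 0.29, 0.39 ± 0.38 and 0.00 ± 0.21, none of which passed. The hepatocyte markers summed to 1023 to 1119 CPM in mutants and 1178 to 1439 CPM in wild types. In wild types *Alb* and *Afp* averaged 329 and 643 CPM, of a mean marker sum of 1327 CPM. The median log2 fold change of the 17 markers was -0.04, with 12 below 0 and 5 above, from -0.81 to 0.70. Of the 17, 3 were called higher and 2 lower, the latter *Afp* (log2 -0.38, edgeR adjusted *P* = 0.000696) and *Fga* (-0.31, 0.0207). *Alb* (log2 -0.41, edgeR adjusted *P* = 0.0893) and *Hnf4a* (-0.32, 0.0525) did not pass. Their groups did not overlap, a gap downward that 18.9% of all genes tested showed. The ratio of enzymes to markers was 25.7, 25.2 and 28.8 CPM per 1000 CPM in mutants and 20.2, 21.8 and 19.7 in wild types. Gene by gene on this scale, *Agxt*, *Ftcd*, *Uroc1* and *Hal* were above the wild types in each mutant, as were 47.8% of all genes tested, and none of the 21 was below, as were 1.1% of genes. All mutant ratios of the sums were above the wild-type ratios (log2 difference 0.37, two-sided exact permutation *P* = 0.1), and by averaged log2 CPM the difference was 0.12.

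*Agxt* was the liver-restricted enzyme called in the *Pax3* line. It measured 1.88, 1.91 and 1.78 CPM in *Pax3* Sp2H/Sp2H and 1.22, 1.16 and 0.902 CPM in wild-type libraries, from 20 to 42 counts. The mutants were higher without overlap (log2 0.77 ± 0.27, edgeR adjusted *P* = 0.0365), where 20.7% of all genes tested showed a gap upward. The call was lost in 8 of 15 alternatives, DESeq2 among them, and without any of the 3 mutant replicates or wild-type replicate 3, with an adjusted *P* up to 0.179. *Otc* showed values of 1.25, 0.911 and 1.27 against 1.85, 1.68 and 1.504 CPM, which did not overlap (18.9% of all genes tested showed a gap downward), and did not pass (log2 -0.54 ± 0.28, edgeR adjusted *P* = 0.154).

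*Psat1* and *Asns* were called lower in *Pax3* Sp2H/Sp2H embryos. *Psat1* read 127, 118 and 119 CPM in mutants and 139, 135 and 136 CPM in wild types. No mutant value reached the wild-type range, a log2 fold change of -0.17 ± 0.05 (edgeR adjusted *P* = 0.0199) that no longer passed without mutant replicate 2 or 3 (adjusted *P* up to 0.0994). *Asns* read 38.9, 38.1 and 39.6 CPM in mutants and 50.1, 45.8 and 40.5 CPM in wild types. Its mutant values were tightly grouped just under the lowest wild-type value (log2 -0.22 ± 0.08, edgeR adjusted *P* = 0.0384), and the call was lost without any single mutant library or without wild-type replicate 1 or 2 (adjusted *P* up to 0.196). *Psat1* was thus called lower in both lines, in comparisons that share no library, and its effect did not differ detectably between the lines (log2 difference -0.07 ± 0.07, edgeR adjusted *P* = 0.509). In the *Pax3* line *Rn45s* was lower in each mutant, and 5 of 10 neural progenitor markers were called higher and none lower, where 14% of all genes were called higher and 10.5% lower (marker sums of 1140 to 1275 CPM in mutants and 1055 to 1145 CPM in wild types). Their part in the values of *Agxt*, *Psat1* and *Asns* was not tested.

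**Figure D5:**
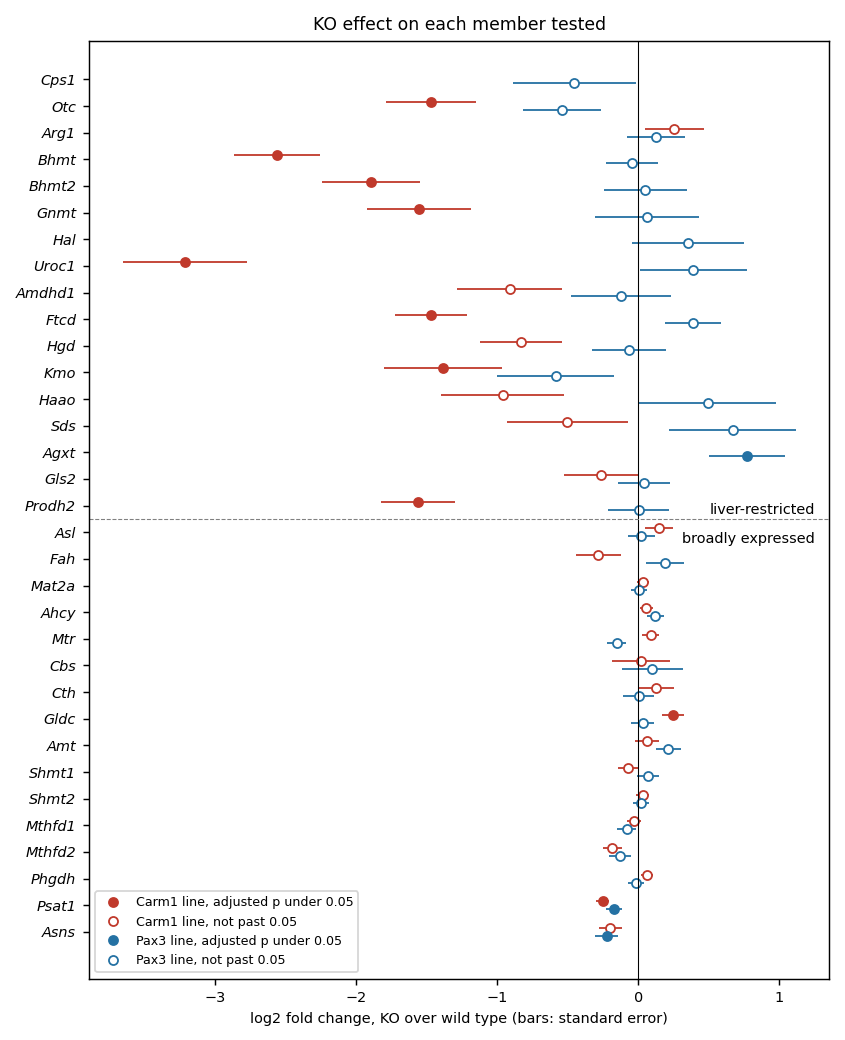
Log2 fold change of mutant over wild type (horizontal axis; bars are standard errors) for the 33 members tested in at least 1 line, red for the *Carm1* and blue for the *Pax3* line, with filled points for an edgeR adjusted *P* under 0.05. Filled red points gather on the left among the liver-restricted enzymes, down to -3.22 for *Uroc1*, while the broadly expressed enzymes lie between -0.28 and 0.25 in both lines.

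The difference between the lines was tested by an interaction term with all 12 libraries fitted together, which covered 34 members. Of these, 9 differed, 8 of them more negative in the *Carm1* line and all 8 liver-restricted. Over all 16292 genes, 19.1% differed and 10.5% were more negative in the *Carm1* line. *Hpd* and *Agxt*, 2 of these 8, passed the filter only through groups in which they were higher, having 2 to 3 counts in *Carm1* KO/KO libraries and 0 to 7 counts in the *Carm1* line, respectively. *Uroc1* (1 to 7 counts in *Carm1* KO/KO libraries), *Bhmt* (5 to 13), *Bhmt2* (7 to 11) and *Gnmt* (8 to 14) were also kept through groups in which they were higher. When at least 10 counts were demanded of each library, 3 members differed. In the main fit, without that demand, the log2 difference was -3.60 ± 0.63 for *Uroc1* (edgeR adjusted *P* = 0.000104), -2.50 ± 0.35 for *Bhmt* (edgeR adjusted *P* = 5.38e-06) and -1.84 ± 0.32 for *Ftcd* (edgeR adjusted *P* = 8.52e-05). *Uroc1* and *Bhmt* had too few counts in *Carm1* KO/KO libraries to be tested when 10 were demanded. *Otc* and *Kmo*, called in the *Carm1* line and not in the *Pax3* line, were not shown to differ between them (-0.92 ± 0.41 and -0.79 ± 0.60, edgeR adjusted *P* = 0.120 and 0.385). The broadly expressed *Mtr* differed in the other direction (0.25 ± 0.09, edgeR adjusted *P* = 0.0429). Its level was 55.7, 53.5 and 50.0 CPM in *Carm1* KO/KO and 53.5, 49.7 and 47.1 CPM in their wild types. In the *Pax3* line it was 45.7, 50.9 and 48.0 CPM in mutants and 54.8, 55.7 and 50.6 CPM in wild types. Its groups overlapped within each line, and neither line's own test passed.

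Wild-type levels also varied between the lines, where strain and laboratory cannot be told apart. *Ahcy* averaged 126 CPM in wild-type embryos of the *Carm1* line and was 1.81 times as high there as in those of the *Pax3* line, *Uroc1* 2.81 times and *Hpd* 4.88 times as high (2.55 times without wild-type replicate 3 of the *Carm1* line), while *Agxt* stood at 0.189 times. Per kilobase of exon, the most abundant members in wild-type embryos of the *Carm1* line were *Mat2a* (81.2 CPM per kb), *Phgdh* (75.8) and *Ahcy* (49.7), and the liver-restricted enzymes lay at or below the 1.98 CPM per kb of *Prodh2*. Of the broadly expressed enzymes, *Cbs* and *Ass1* also lay under that level, at 0.492 and 0.0201 CPM per kb. The value of *Ass1* rests on at most 1 count per library.

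Other genes of the same pathways, listed with the members, gave 12 lower and 4 higher calls among 100 genes tested over 6 lists in the *Carm1* line. These shares, 12% and 4%, were near the 7.83% and 5.49% of all genes. Of 16 further genes of the methionine cycle and transsulfuration tested, 2 were lower and none higher, *Dmgdh* (-1.77, edgeR adjusted *P* = 0.000174) and *Sardh* (-0.39, 0.00460), which degrade the dimethylglycine and sarcosine that betaine and glycine methylation leave behind. Of 22 further genes of serine, glycine, proline and glutamine metabolism, 5 were lower and none higher, among them *Agxt2* (-1.56, edgeR adjusted *P* = 0.0159), a second glyoxylate aminotransferase, and *Pipox* (-0.82, 0.00430), which oxidizes pipecolate and sarcosine. Of 14 further genes of aromatic amino acid metabolism, 2 were lower and none higher, among them *Qprt*, of NAD synthesis (-0.77, edgeR adjusted *P* = 0.00247). In the urea cycle and arginine list 2 of 10 were lower, *Gatm* of creatine synthesis (-0.27, edgeR adjusted *P* = 0.0356) and *Odc1* of polyamine synthesis (-0.12, 0.0413). In the folate list 2 of 17 were higher, among them *Mthfsd* (0.34, edgeR adjusted *P* = 0.000417), and in branched-chain and lysine breakdown 1 of 21 was lower and 2 were higher. Medians of these 6 lists lay between -0.13 and -0.01.

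In the *Pax3* line the same 6 lists gave 13 genes higher and 4 lower among 98 tested, which is 13.3% and 4.08%, beside 14% and 10.5% of all genes. Among those called higher, the largest change was that of *Sdsl*, a relative of serine dehydratase (log2 1.19, edgeR adjusted *P* = 8.22e-05), followed by *Mthfs* of folate metabolism (0.82, edgeR adjusted *P* = 0.00480). *Mthfsd* was higher here too (0.35, edgeR adjusted *P* = 0.00352), and *Gatm* was lower (-0.27, edgeR adjusted *P* = 0.0312). *Psat1* and *Asns* are also known targets of the stress factor ATF4, and of 26 genes of that integrated stress response tested, 2 were lower and 1 higher in the *Carm1* line and 1 was lower and 3 were higher in the *Pax3* line, the largest being *Ddit4* (1.09, edgeR adjusted *P* = 0.00135). These are 11.5% and 15.4% of the 26, where 13.3% and 24.5% of all genes were called in either direction.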

How the data were processed

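Each of 12 whole embryos gave 1 library of polyadenylated RNA. Per the labels and methods, the authors used STAR for alignment of the paired reads to mm10 and featureCounts for counting (versions, strand setting and treatment of reads with several alignments are not given in the sources used here), and deposited raw counts, whole numbers for 23420 genes in a table for each line. Groups and replicate numbers were taken from the labels. Counts were scaled by TMM, filtered with filterByExpr and tested by the quasi-likelihood test of edgeR (4.0.16, R 4.3.3, robust) in each line apart (15811 genes of the *Carm1* and 15724 of the *Pax3* line after the filter), with Benjamini-Hochberg adjustment over all genes tested and a threshold of 0.05. The lines were compared as an interaction in one fit of 12 libraries. The procedure was first tested on simulated data. Replicate correlations of log2 CPM and chi-square values showed no library deposited more than once, and as the embryos were separate animals *P* values measure the spread between embryos.

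The members, their classes and the lists of other genes were chosen with earlier results of these data known. All members are accounted for; values per library are given for those that passed in a line or in the interaction, and from each other list at most 3 higher and 3 lower genes with the largest change are named. GENCODE M21 (GRCm38) matched 21777 symbols as written and 1265 through another symbol, with 378 unmatched, and gave positions and exon lengths. Promoters were read from RefSeq (GRCm38.p6). Alternatives were DESeq2 (1.42.0), RLE and upper-quartile factors, no filter, at least 10 counts demanded of each library, a joint fit of the 12 libraries, the replicate number as a block, a term for libraries with at least 100 Y-linked counts, offsets for length and GC content, averaged log2 CPM (pseudocount 0.5) in the ratio, and leaving out each library. Chosen after the data had been seen were DESeq2 with the Y-linked term, levels per hepatocyte marker and the values of *Hpd* without a wild-type library. Protein sequences were not analysed here, and the values of some genes on the other lists are not reported here.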

Additional observations from a re-analysis of the deposited data

Results flagged for a closer look

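The effect of the mutation differed between the *Carm1* and the *Pax3* line for 9 members, by the edgeR interaction test with Benjamini-Hochberg adjustment, and that difference is why each is listed. The values are the log2 effect in the *Carm1* line minus that in the *Pax3* line. They were -3.60 for *Uroc1*, -2.50 for *Bhmt*, -1.93 for *Bhmt2*, -1.84 for *Ftcd* and -1.55 for *Prodh2*, which passed in all alternatives that could test them (*Uroc1* at -4.44 without *Carm1* mutant replicate 2). *Uroc1*, *Bhmt* and *Bhmt2* could not be tested when each library had to hold at least 10 counts. *Gnmt* gave -1.61 (adjusted *P* = 0.0366) and lost the call in 8 of 19 alternatives (adjusted *P* up to 0.147). *Hpd* gave -3.88 (adjusted *P* = 0.00847), with 2 to 54 counts per library in the *Carm1* line and 3 to 21 in the *Pax3* line, gave -2.91 without *Carm1* wild-type replicate 3, and lost the call without *Pax3* mutant replicate 3 (adjusted *P* = 0.0538). *Agxt* gave -2.99 (adjusted *P* = 0.0386), with 0 to 7 counts per library in the *Carm1* line, and lost the call in 10 of 18 alternatives (adjusted *P* up to 0.192), over which it ran from -5.85 without mutant replicate 2 to -2.35 without wild-type replicate 3 of that line. *Mtr* gave 0.25 (adjusted *P* = 0.0429) and lost the call in 11 of 21 alternatives. Strain and laboratory differed between the lines together with the mutated gene, and their parts cannot be told apart.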

How the results depend on the processing

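No called result changed its direction. *Uroc1*, *Bhmt*, *Bhmt2*, *Ftcd*, *Otc*, *Prodh2* and *Psat1* kept their call in the *Carm1* line in every alternative that tested them. When each library had to hold at least 10 counts, which tests fewer genes, 6 members were called in the *Carm1* line, the median of the liver-restricted members was -1.15, and 3 members differed between the lines. The term for libraries with Y-linked counts gave a median of -1.23. Offsets for length and GC content gave 3180 genes called in the *Carm1* line and 2473 in the *Pax3* line. DESeq2 gave 4 members that differed between the lines, alone and with the Y-linked term, and with that term 864 genes in the *Carm1* line. For these the cause was not tested. The ratio of enzymes to hepatocyte markers, from averaged log2 CPM, was 0.23 in the *Carm1* line, where the summed values gave -0.24, and 0.12 in the *Pax3* line, where they gave 0.37. Averaging gives each gene the same weight, and the pseudocount makes the fold changes of genes with low CPM smaller. Which of these turned the direction in the *Carm1* line was not tested.

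Leaving out 1 library gave 1224 to 2290 genes and 8 to 11 members called in the *Carm1* line, with a median of the liver-restricted members from -1.49 to -1.23 (the last without wild-type replicate 3). The count of genes was 1224 without mutant replicate 1, 1381 without mutant replicate 2 and 1349 without wild-type replicate 2. In the *Pax3* line 2454 to 4103 genes and 0 to 3 members were called, with 2565 genes and 1 member without mutant replicate 1, 0 members without mutant replicate 2, and 2454 genes and 0 members without mutant replicate 3. From 5 to 8 members differed between the lines, 5 without *Pax3* mutant replicate 3. The labels number replicates alike in all groups, but same-numbered libraries did not deviate together (correlations -0.042 to 0.001 in the *Carm1* line, -0.091 to 0.227 in the *Pax3* line). With the replicate number as a block, 1787 genes and 10 members were called in the *Carm1* line, 4177 and 3 in the *Pax3* line, and 3094 and 8 between the lines. Counting error limits the values of groups with few counts per library, in *Carm1* mutants 1 to 7 for *Uroc1*, 5 to 13 for *Bhmt*, 7 to 11 for *Bhmt2*, 8 to 14 for *Gnmt*, 5 to 9 for *Kmo* and 2 to 3 for *Hpd*, and 0 to 7 for *Agxt* in that line.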
